A study of Mus musculus with 42 samples.

Results

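The CC chemokines described here are 10 genes, Ccl2, Ccl3, Ccl4, Ccl5, Ccl6, Ccl7, Ccl9, Ccl12, Ccl22 and Ccl24, taken by symbol from a table of RNA-seq counts that lists 37310 genes. The table covers 42 libraries of bone-marrow-derived macrophages (BMDM), grown from mouse marrow in L929-conditioned medium, in 14 groups of 3 libraries. Each labelled genotype, WT and KO, was sampled untreated (Control) at 0, 2 and 24 h and after 2 or 24 h with bacterial lipopolysaccharide (LPS), given as a stimulant of IRF5 signalling, or palmitate, a saturated fatty acid that models lipotoxicity. The methods do not say whether Control cells received the ethanol and albumin used to dissolve palmitate. Palmitate and that vehicle therefore cannot be told apart. By the study's methods all mice were young males on a C57BL/6 background, and KO mice came from a cross of Irf5 flox/flox with LysM-Cre, in which Cre sits in the lysozyme gene Lyz2 and acts in myeloid cells. The methods do not say whether WT marrow came from Cre-negative mice of that cross. The sources used here also do not say whether the 3 libraries of a group came from separate mice or cultures, so p-values measure the spread between these libraries, which may be technical.

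CC chemokines are small secreted proteins with adjacent cysteines near the N terminus that steer leukocytes through G-protein-coupled receptors. Macrophages are a main source, and sensing of LPS by TLR4 starts transcription of many of them through NF-kappaB and, by way of type I interferon, through interferon-responsive factors. Ccl2, Ccl7 and Ccl12 encode ligands of CCR2, the receptor that draws inflammatory monocytes. Ccl3, Ccl4 and Ccl5 encode inflammatory chemokines that draw monocytes and T cells, and Ccl3 and Ccl5 bind CCR1. Ccl6 and Ccl9 encode CCR1 ligands made by myeloid cells. Ccl22 is a ligand of CCR4, and Ccl24 is a ligand of CCR3, the receptor of eosinophils.

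The libraries held between 2848793 and 7743442 counts (median 5625399), so that 3 counts in a library, taken as the floor, were worth between 0.387 and 1.053 CPM, the count scaled to the size of the library. All 8 macrophage markers were above the floor, with a summed level between 9785 and 23570 CPM. Markers of T and NK cells, dendritic cells, B cells, and eosinophils with basophils and mast cells summed to at most 34.0 CPM in any library, and those of granulocytes and their precursors to between 20.7 and 451 CPM. Fibroblast markers (5 of 6 above the floor in some library, Lum at most 1 count) ranged from 0 to 305 CPM and passed 100 CPM in 5 libraries, all labelled KO. Irf5, the targeted gene, was not lower in the libraries labelled KO. At Control 0 h, Control 2 h, palmitate 24 h and LPS 24 h it was higher there, at an edgeR adjusted p under 0.05. It ranged from 266.7 to 429.8 CPM there and from 209.3 to 388.5 CPM in those labelled WT. Its log2 difference within a condition lay between 0.04 (palmitate 2 h, edgeR adjusted p = 0.895) and 0.47 (LPS 24 h, edgeR adjusted p = 1.55e-07). The mean difference over the 7 conditions, added after seeing the data and given as a description, was 0.27. A count over the whole gene can include exons outside a floxed segment, so this does not settle the labels. Why the counts were higher was not tested. Libraries are called "labelled KO" and "labelled WT" throughout. Lyz2, where the Cre sits, was lower in the libraries labelled KO in each of the 7 conditions. Its log2 difference lay between -1.11 (LPS 24 h, edgeR adjusted p = 1.14e-11) and -0.51 (Control 0 h, edgeR adjusted p = 1.62e-04). The mean difference, again as a description, was -0.84.

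In mm10, 8 of the 10 genes lie on chromosome 11. The CCR2 ligands Ccl2 (chr11:82035571-82037453), Ccl7 (chr11:82045712-82047525) and Ccl12 (chr11:82101845-82103400) follow each other on the plus strand. After a gap of 1422.4 kb come Ccl5 (chr11:83525778-83530518), Ccl9 (chr11:83572919-83578636), Ccl6 (chr11:83587882-83593087) and Ccl3 (chr11:83647844-83649355) on the minus strand and Ccl4 (chr11:83662584-83664683) on the plus strand. Ccl22 lies on chromosome 8 (chr8:94745590-94751699, plus strand) and Ccl24 on chromosome 5 (chr5:135569937-135573049, minus strand). Genes on the other strand overlap Ccl2 (Gm17268, at most 1 count in a library) and Ccl6 (E230016K23Rik, at most 2 counts). The longest exact run shared by transcripts was 25 bases for Ccl6 and Ccl9 and 23 bases for Ccl2 and Ccl7.

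RefSeq promoter sequences (GRCm38.p6) were matched for 5 of the 10 genes. The 4 printed below end at the base before the RefSeq transcription start, which for Ccl3 (chr11:83649378) lies upstream of the gene coordinates above. They read in the direction of transcription. They are shown because the genes differ in their change with LPS, described further on: Ccl9 and Ccl6 are neighbours 9.2 kb apart of which Ccl9 alone was called, Ccl3 was high early, and Ccl12 rose from near 0 at both times. They lie at chr11:83578637-83578886 (Ccl9, minus strand), chr11:83593088-83593337 (Ccl6, minus strand), chr11:83649379-83649628 (Ccl3, minus strand) and chr11:82101595-82101844 (Ccl12, plus strand), and capitals mark motif matches.
Ccl9: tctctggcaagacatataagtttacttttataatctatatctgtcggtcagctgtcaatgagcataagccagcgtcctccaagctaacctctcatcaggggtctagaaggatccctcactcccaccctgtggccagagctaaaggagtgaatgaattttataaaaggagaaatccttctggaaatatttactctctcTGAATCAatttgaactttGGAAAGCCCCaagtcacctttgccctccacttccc
Ccl6: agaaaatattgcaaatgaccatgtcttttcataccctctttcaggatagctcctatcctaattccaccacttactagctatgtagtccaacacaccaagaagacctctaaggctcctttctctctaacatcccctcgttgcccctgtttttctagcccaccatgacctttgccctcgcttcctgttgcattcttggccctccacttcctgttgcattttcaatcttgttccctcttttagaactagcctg
Ccl3: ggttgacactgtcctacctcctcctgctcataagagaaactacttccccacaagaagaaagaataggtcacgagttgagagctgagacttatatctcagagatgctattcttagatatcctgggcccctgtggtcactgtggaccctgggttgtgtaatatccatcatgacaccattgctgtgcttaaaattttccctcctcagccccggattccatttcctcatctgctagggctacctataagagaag
Ccl12: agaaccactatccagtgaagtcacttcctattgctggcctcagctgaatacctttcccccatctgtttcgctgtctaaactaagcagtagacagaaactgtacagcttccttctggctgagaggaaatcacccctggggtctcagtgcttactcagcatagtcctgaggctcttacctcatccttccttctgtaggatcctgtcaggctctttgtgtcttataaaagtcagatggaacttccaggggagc

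The motifs, searched on both strands, were an NF-kB-like one (GGG, any 3 bases, TTCC), an ISRE-like one (GAAA, any 2 bases, GAAA), the AP-1 motif TGANTCA and a C/EBP-like TTGCNNAA, and were chosen after these letters had been seen. In windows from 250 bases before to 50 bases after the start they were present in 5.6%, 3.4%, 7.8% and 10.8% of 32851 promoters. Among the 5 members the Ccl9 window alone held a match, GGAAAGCCCC (the NF-kB-like motif on the other strand, at -35 from the start) and TGAATCA (AP-1, at -53). A match is a description of letters and not of binding.

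**Figure D1:**
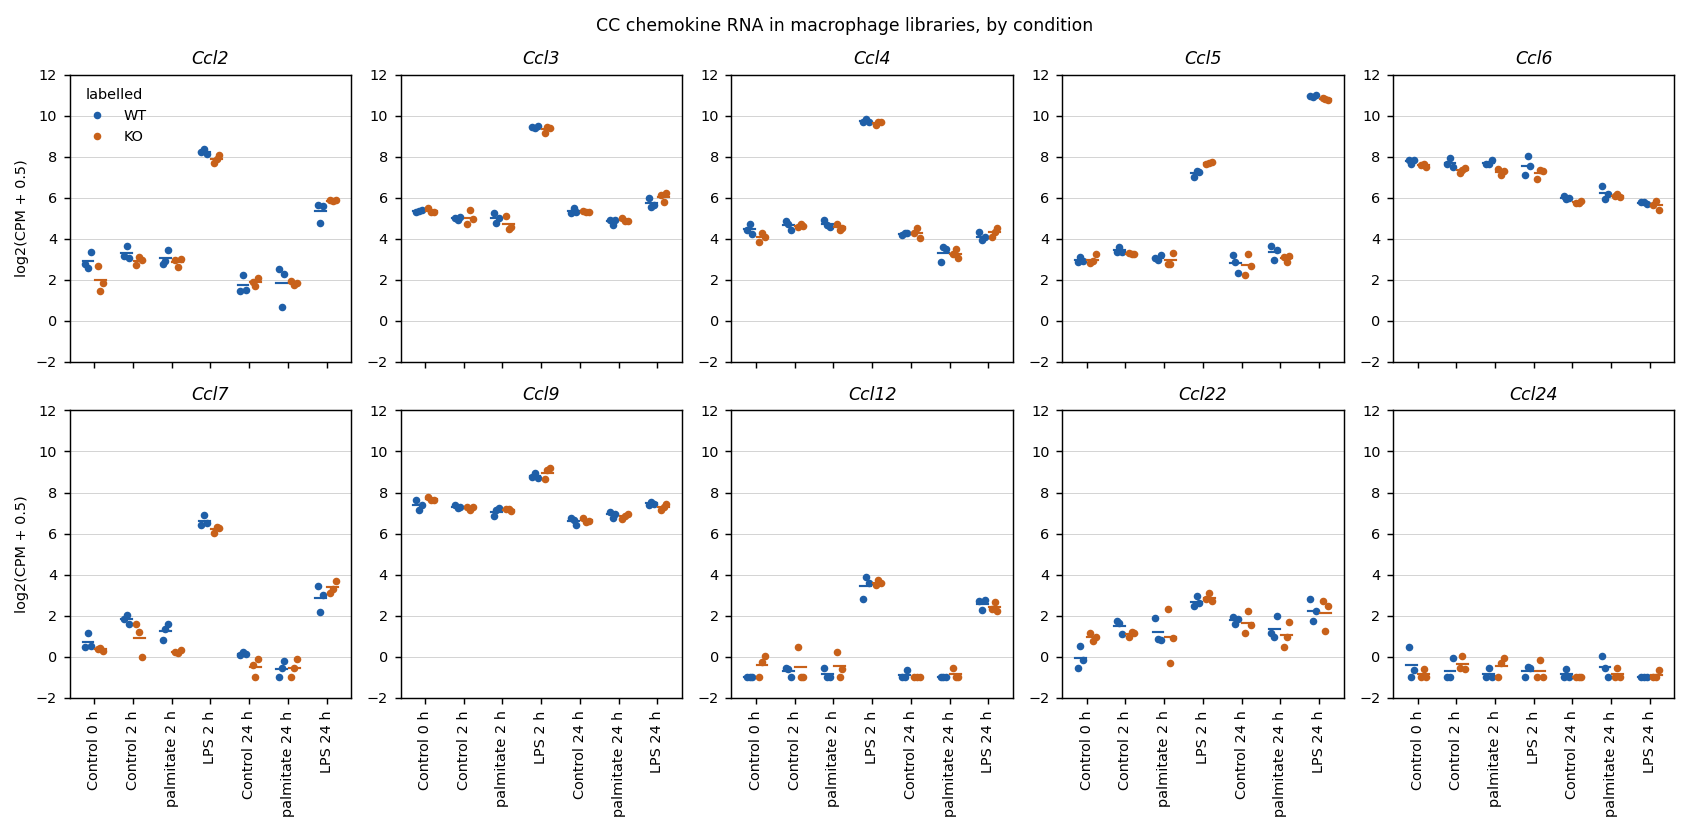
Level of each CC chemokine in every library as log2(CPM + 0.5), by condition. Points are libraries (3 per group, blue labelled WT, orange labelled KO) and short bars are means of the log values. Ccl2, Ccl3, Ccl4 and Ccl7 are highest after 2 h of LPS, Ccl5 after 24 h of LPS, Ccl6 is lower in the 24 h groups, and Ccl24 stays near 0.

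Resting BMDM and LPS-treated BMDM were led by different members. Genes were compared by CPM per kb of exon. At Control 0 h Ccl6 was the highest, at 122 CPM per kb labelled WT and 106 labelled KO. Ccl9 (55.8 and 67.9), Ccl3 (52.4 and 53.0) and Ccl4 (33.1 and 24.8) came next, well above Ccl5 and Ccl2. At Control 24 h Ccl3 was the highest (52.7 labelled WT and 51.5 labelled KO), above Ccl6 (35.3 and 30.5) and Ccl9 (32.2 and 32.9). After 2 h of LPS, Ccl4 made up 42.8% and Ccl3 30.1% of the summed level per kb in the libraries labelled WT, and 42.8% and 29.6% in those labelled KO. After 24 h of LPS, Ccl5 made up 89.6% and 87.4%.

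**Figure D2:**
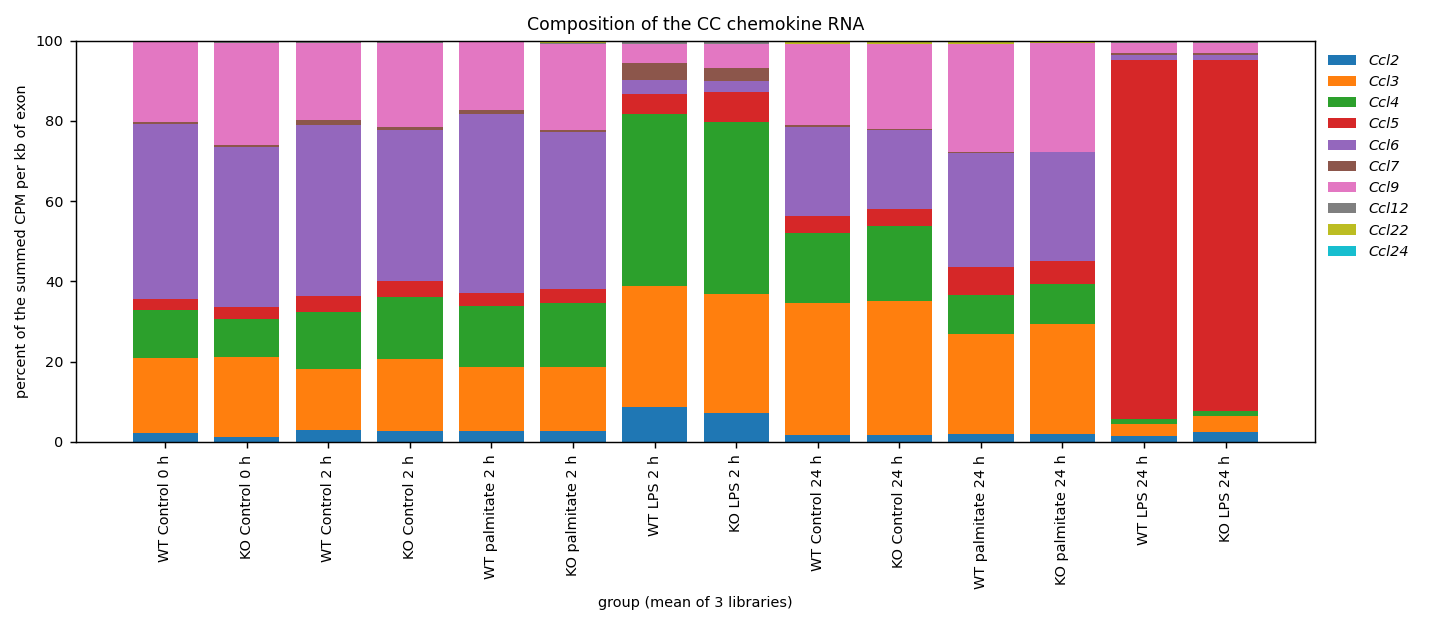
Share of each CC chemokine in the summed CPM per kb of exon of the 10 genes, in percent, for the 14 groups. Ccl6 is the largest share at Control 0 h (43.7% labelled WT) and Ccl3 at Control 24 h (33.0% labelled WT). Ccl4 is the largest after 2 h of LPS, and Ccl5 after 24 h of LPS.

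The sum of the 10 genes was 270.5 ± 23.02 CPM per kb at Control 2 h and 3026 ± 186 at LPS 2 h in the libraries labelled WT (mean ± SD, n = 3), and 238 ± 13.6 and 2848 ± 221 in those labelled KO. At 24 h it was 159.8 ± 8.68 in Control and 2306 ± 101 with LPS labelled WT, and 155 ± 4.47 and 2135 ± 33.3 labelled KO. The members together held between 0.0238% and 0.0478% of all counts in Control and palmitate groups and between 0.217% and 0.246% in LPS groups. With the longest transcript as the length, the leading member was the same in 13 of 14 groups.

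LPS for 2 h raised the CCR2 ligands and Ccl3, Ccl4 and Ccl5 by more than an order of magnitude and left Ccl6 without a call. Of the 9 members with enough counts to be tested, 8 were called higher in each labelled genotype and none lower, where a call is a Benjamini-Hochberg adjusted p under 0.05 by edgeR's quasi-likelihood test over 11624 genes. Ccl12, among the 8, had enough counts for testing only through LPS libraries, so its call was nearly fixed in advance. Of all genes tested, 23.1% were called labelled WT (14% as higher) and 23.9% labelled KO (14.7% as higher). The median log2 fold change of the tested members was 4.48 and 4.49, against -0.01 over all genes in both. Of all called genes 60.6% and 61.6% were higher, and 29.7% and 28.9% when no scaling factors were used, which moved the median of all genes by -0.16 and -0.18. In bulk libraries such as these, more RNA per cell and more cells of one kind cannot be told apart.

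Ccl2, the main CCR2 ligand, stood at 8.51, 12.1 and 7.99 CPM in the Control 2 h libraries labelled WT and at 298, 336 and 276 CPM with LPS. The log2 fold change, given with its SE here and below, was 4.99 ± 0.187 (adjusted p = 6.43e-28). In the libraries labelled KO it went from 6.14, 8.05 and 7.29 to 207, 234 and 267 CPM (5.04 ± 0.198, adjusted p = 3.47e-27). Every LPS library lay above every Control library. Ccl7, its neighbour and also a CCR2 ligand, went from 3.09, 3.63 and 2.52 to 85.4, 118 and 92.2 CPM labelled WT (5.00 ± 0.249, adjusted p = 6.86e-23) and from 2.53, 1.79 and 0.508 to 65.6, 78.5 and 76.9 CPM labelled KO (5.52 ± 0.280, adjusted p = 1.43e-22). Ccl12 had 0 to 1 counts per Control library labelled WT and 6.43, 14.4 and 11.7 CPM with LPS. It had 151 LPS counts against 2 in Controls. Scaled to library size, here and below, the ratio was 104. Its exact 95% interval of 28.3 to 866 covers counting error only. In the libraries labelled KO, Ccl12 had 0 to 5 counts per Control library and 10.6, 12.8 and 11.7 CPM with LPS (adjusted p = 8.01e-09). Ccl2 and Ccl7 were thus called higher in both labelled genotypes, where 14% and 14.7% of all genes were. Ccl12 was called too, but it had enough counts to be tested only through LPS libraries, so its call adds little.

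Ccl3 and Ccl4 reached the highest levels per kb of this time. Ccl3 went from 31.5, 29.9 and 32.4 to 696, 683 and 714 CPM labelled WT (4.48 ± 0.120, adjusted p = 2.78e-34) and from 25.8, 41.1 and 31.2 to 575, 697 and 667 CPM labelled KO (4.31 ± 0.119, adjusted p = 1.48e-33). Ccl4, which lies next to Ccl3, went from 28.8, 25.6 and 21.0 to 827, 925 and 812 CPM (5.10 ± 0.111, adjusted p = 4.56e-38) and, labelled KO, from 23.5, 25.4 and 23.9 to 757, 825 and 829 CPM (5.05 ± 0.111, adjusted p = 1.00e-37). For Ccl3 and Ccl4 the LPS libraries of the labelled genotypes overlapped. Ccl5, which also draws T cells, went from 9.67, 11.6 and 9.77 to 129, 157 and 154 CPM labelled WT (3.84 ± 0.119, adjusted p = 2.26e-31). Labelled KO it went from 9.40, 8.94 and 8.98 to 202, 203 and 210.2 CPM (4.49 ± 0.121, adjusted p = 3.77e-34), and here the LPS libraries of the labelled genotypes did not overlap.

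Ccl6 and Ccl9, both CCR1 ligands, moved less. Ccl9 went from 166, 152 and 156 to 425, 501 and 422 CPM labelled WT (1.51 ± 0.106, adjusted p = 3.85e-17) and from 155, 143 and 154 to 399, 539.6 and 581 CPM labelled KO (1.76 ± 0.106, adjusted p = 1.52e-19). Ccl6 stood at 199, 244 and 179 CPM in Controls and 136, 257 and 184 CPM with LPS labelled WT (-0.09 ± 0.127, adjusted p = 0.693), and gave -0.10 ± 0.132 labelled KO (adjusted p = 0.665). Its libraries overlapped, and without LPS library 2 labelled WT the difference was called (-0.36, adjusted p = 0.0378). Ccl22, the CCR4 ligand, had 11 to 16 counts per Control library and 14 to 35 per LPS library labelled WT (1.33 ± 0.479, adjusted p = 0.0366). That call was lost without any one of the 3 Control libraries or without LPS library 2 or 3 (1.10 to 1.48, adjusted p from 0.0515 to 0.16), and with no scaling factors (1.17, adjusted p = 0.0595). Labelled KO, Ccl22 gave 2.06 ± 0.503 (adjusted p = 0.00130). Ccl24 had 0 to 5 counts in every library of the series and was not tested in any comparison.

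**Figure D3:**
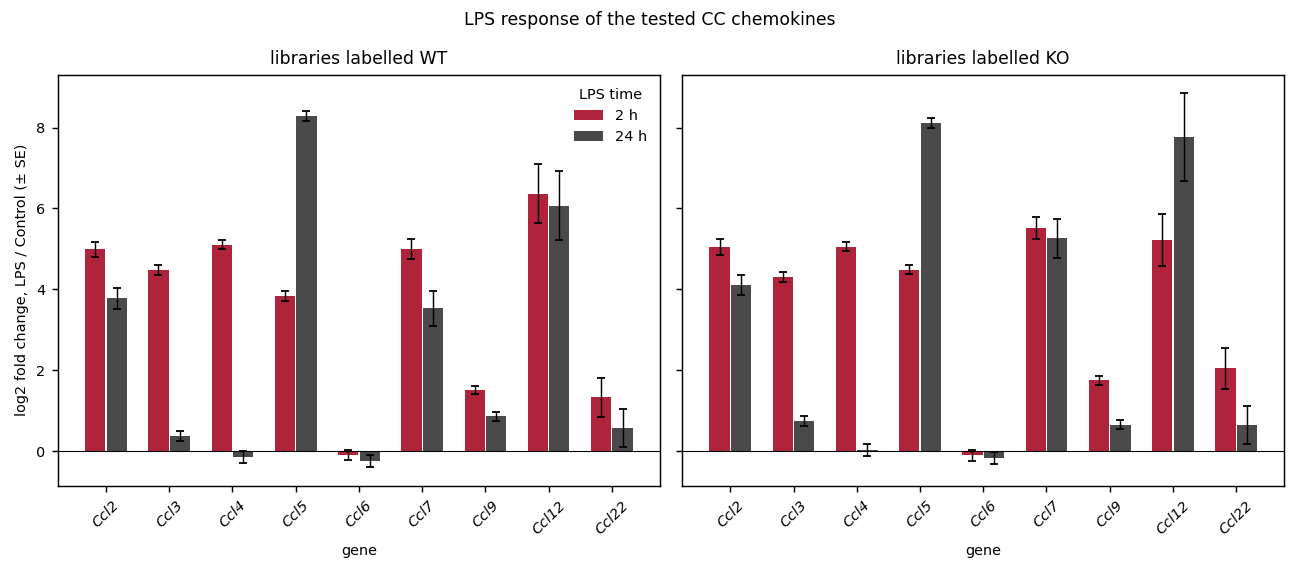
Log2 fold change of LPS over Control of the same time, with SE, for the 9 tested members at 2 h and 24 h, labelled WT and labelled KO in separate panels. Ccl3 and Ccl4 are below 1 at 24 h and Ccl5 reaches 8.29 and 8.10. Ccl12 and, at 24 h labelled KO, Ccl7 are fitted against Controls with few or no counts.

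After 24 h of LPS, Ccl5 dominated, the CCR2 ligands were still above Control, and Ccl4 was not called. In each labelled genotype 6 members were called higher (Ccl2, Ccl3, Ccl5, Ccl7, Ccl9 and Ccl12) and none lower. The Ccl12 call is again that of a gene testable only through LPS libraries. Of all genes, 39.5% were called labelled WT (19.6% as higher) and 40.9% labelled KO (19.9% as higher). The median log2 fold change of the tested members was 0.86 and 0.75.

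Ccl5 stood at 8.69, 6.85 and 4.51 CPM in Controls labelled WT and at 1994, 1900 and 2053 CPM with LPS, a 313-fold difference (8.29 ± 0.122, adjusted p = 5.30e-45). Labelled KO it stood at 4.21, 8.92 and 5.94 CPM in Controls and 1827, 1809 and 1739 CPM with LPS, 275-fold (8.10 ± 0.121, adjusted p = 1.00e-44). Per kb of exon this was the highest level of any member in any group (2065 and 1866 CPM per kb). Ccl2 stood at 2.24, 4.28 and 2.33 CPM in Controls and 49.6, 26.9 and 48.5 CPM with LPS labelled WT (3.78 ± 0.262, adjusted p = 1.94e-17), and at 3.22, 2.73 and 3.82 CPM in Controls and 57.9, 56.3 and 58.2 CPM with LPS labelled KO (4.11 ± 0.246, adjusted p = 7.47e-20). Ccl7 had 2 to 4 counts per Control library and 10.4, 3.97 and 7.65 CPM with LPS labelled WT (3.53 ± 0.423, adjusted p = 9.33e-10). Both CCR2 ligands were lower than at 2 h of LPS and above every Control library. Labelled KO, Ccl7 had 8.19, 9.33 and 12.6 CPM with LPS, and its 191 counts against 4 gave a scaled ratio of 41.9 (exact interval 16.1 to 155). Ccl12 had 6.16, 4.30 and 6.27 CPM with LPS labelled WT, 103 counts against 1 (scaled ratio 91.0, exact interval 16.0 to 3630). Labelled KO it had 4.47, 5.78 and 4.24 CPM and no count in any Control, at least 8.46-fold higher with the floor at 3 counts per library.

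Of the neighbours Ccl3 and Ccl4, Ccl3 was called at 24 h and Ccl4 was not. Ccl3 stood at 37.9, 44.7 and 38.6 CPM in Controls and 63.2, 46.1 and 49.7 CPM with LPS labelled WT (0.38 ± 0.128, adjusted p = 0.0137). The call was lost without LPS library 1 (0.25, adjusted p = 0.167) or Control library 3 (0.34, adjusted p = 0.0708). Labelled KO it stood at 39.9, 39.1 and 39.3 CPM in Controls and 68.7, 55.8 and 73.3 CPM with LPS (0.75 ± 0.125, adjusted p = 2.08e-06), without overlap. Ccl4 stood at 17.4, 18.8 and 18.8 CPM in Controls and 19.3, 14.9 and 16.2 CPM with LPS labelled WT (-0.14 ± 0.154, adjusted p = 0.520) and gave 0.04 ± 0.149 labelled KO (adjusted p = 0.855). Ccl9, a CCR1 ligand, stood at 109, 101 and 84.4 CPM in Controls and 168, 186 and 176 CPM with LPS labelled WT (0.86 ± 0.112, adjusted p = 7.98e-09) and gave 0.66 ± 0.112 labelled KO (adjusted p = 2.79e-06). Ccl6 (-0.23 ± 0.152 and -0.16 ± 0.155) and Ccl22 (0.59 ± 0.471 and 0.65 ± 0.469) did not pass the test. Of the granulocyte markers, Lcn2 stood at 275 to 420.3 CPM in these LPS libraries and at most at 38.4 CPM in any other group. The other 9 markers together stood at 30.8 to 63.3 CPM here, so the high sum of that list was that of Lcn2.

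The shift between the times was tested as the LPS response at 24 h minus that at 2 h. In the libraries labelled WT 5 members were called and in those labelled KO 4, where 32.6% and 33.4% of all genes were called. Ccl4 changed by -5.24 ± 0.196 (adjusted p = 5.59e-27) and -5.01 ± 0.193 (adjusted p = 2.29e-26), and Ccl3 by -4.09 ± 0.176 (adjusted p = 1.46e-24) and -3.56 ± 0.175 (adjusted p = 1.87e-22). Ccl5 alone gained, by 4.45 ± 0.213 (adjusted p = 6.67e-23) and 3.61 ± 0.219 (adjusted p = 5.21e-19). Thus Ccl3 and Ccl4 had lost most of their response when Ccl5 had gained. Ccl9 changed by -0.65 ± 0.154 (adjusted p = 6.72e-04) and -1.10 ± 0.154 (adjusted p = 7.82e-08). Ccl2 was called labelled WT (-1.21 ± 0.409, adjusted p = 0.0186), though not without Control 24 h library 2 (-0.81, adjusted p = 0.249), and gave -0.93 ± 0.399 labelled KO (adjusted p = 0.0664). Ccl7 (-1.47 ± 0.686, adjusted p = 0.0951, labelled WT), Ccl6 and Ccl22 did not pass the test, and the Ccl12 estimate, against Controls with almost no counts, has little precision.

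Untreated cells changed with time as well. From Control 0 h to 2 h, over both labelled genotypes, 4 members were called higher and 2 lower, where 16.7% of all genes were called. The higher ones were Ccl2 (0.68 ± 0.215, adjusted p = 0.0221), Ccl4 (0.38 ± 0.101, adjusted p = 0.00496), Ccl5 (0.39 ± 0.133, adjusted p = 0.0347) and Ccl7 (1.17 ± 0.340, adjusted p = 0.0106). Ccl3 (-0.34 ± 0.0959, adjusted p = 0.00929) and Ccl9 (-0.28 ± 0.0758, adjusted p = 0.00550) were the lower ones. These changes are small beside those with LPS. Leaving out one library at a time ended the Ccl2 call for 5 libraries (0.54 to 0.64) and the Ccl5 call for 8 (0.35 to 0.40). Without Control 2 h library 1 labelled KO, which is among those with fibroblast markers over 100 CPM, 3 members were called, and Ccl3 (-0.26, adjusted p = 0.0625) and Ccl7 (0.94, adjusted p = 0.0929) were not.

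By Control 24 h Ccl6 and Ccl9 had fallen. Ccl6 stood at 230, 201 and 226 CPM at 0 h and 67.8, 60.4 and 62.0 CPM at 24 h labelled WT, and at 195, 196 and 179.5 CPM and then 53.1, 53.5 and 57.5 CPM labelled KO, a change of -1.79 ± 0.0986 over both (adjusted p = 1.24e-19). No 24 h library reached any 0 h library. Ccl9 changed by -0.93 ± 0.0792 (adjusted p = 4.43e-13) and the low Ccl22 by 1.71 ± 0.422 (adjusted p = 0.00251), so that 3 members were called where 16.5% of all genes were. Ccl2 (-0.71 ± 0.268, adjusted p = 0.0631) and Ccl3 (-0.01 ± 0.0941, adjusted p = 0.944) did not pass the test.

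Palmitate gave few calls. At 2 h edgeR called no member in either labelled genotype, where 0.275% (labelled WT) and 0.112% (labelled KO) of all genes were called. At an unadjusted p under 0.05 there was 1 member labelled WT (Ccl9) and there were 2 labelled KO (Ccl3 and Ccl7). Of all 11624 genes, 866 and 536 were under it, and DESeq2 called 0 members in both. At 24 h Ccl4 was the 1 member called in each, where 0.852% and 0.877% of all genes were called. It stood at 17.4, 18.8 and 18.8 CPM in Controls and 6.74, 11.4 and 10.6 CPM with palmitate labelled WT (-0.95 ± 0.175, adjusted p = 8.31e-04). Labelled KO it stood at 19.1, 22.2 and 16.0 CPM in Controls and 9.10, 10.7 and 7.98 CPM with palmitate (-1.04 ± 0.172, adjusted p = 1.75e-04). The palmitate libraries lay below all Controls in both, and Ccl4 was called under every alternative (-1.09 to -0.74 and -1.18 to -0.90). Ccl3 had the same direction without a call: 37.9, 44.7 and 38.6 against 30.1, 24.7 and 30.1 CPM labelled WT (-0.52 ± 0.141, adjusted p = 0.0644) and -0.42 ± 0.139 labelled KO (adjusted p = 0.197), again without overlap. Ccl5 (0.64 ± 0.200 and 0.27 ± 0.204), Ccl6 (0.27 ± 0.148 and 0.32 ± 0.150) and Ccl9 (0.33 ± 0.115 and 0.21 ± 0.115) were not called. At an unadjusted p under 0.05 there were 4 members labelled WT (Ccl3, Ccl4, Ccl5 and Ccl9) and 3 labelled KO (Ccl3, Ccl4 and Ccl6), where 1049 and 927 of all genes were. DESeq2 called 3 labelled WT, Ccl3 (adjusted p = 0.0123), Ccl5 (adjusted p = 0.0404) and Ccl4, and 1 labelled KO. Some other alternatives also called Ccl3, Ccl5 or Ccl9 labelled WT and Ccl3 or Ccl6 labelled KO.

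Between the labelled genotypes few of these genes were called. There was 1 called member at Control 0 h (where 12.5% of all genes were called) and 1 at LPS 2 h (where 0.465% were called). At an unadjusted p under 0.05 there were 5 at Control 0 h (Ccl2, Ccl4, Ccl9, Ccl12 and Ccl22), where 2917 of the 11624 genes tested were. At LPS 2 h there were 4 (Ccl2, Ccl5, Ccl6 and Ccl7), where 1342 genes were. Of these members, Ccl4 (-0.40 ± 0.149) and Ccl9 (0.29 ± 0.106) at Control 0 h, both at an edgeR adjusted p of 0.068, were called under some alternatives. At the other conditions edgeR and DESeq2 both called 0 members. These were Control 2 h (0.49% of all genes called by edgeR, 2 members at an unadjusted p under 0.05), palmitate 2 h (0.146%, 2 members), Control 24 h (0.12%, 0 members), palmitate 24 h (0.0688%, 0 members) and LPS 24 h (0.146%, 2 members). In that order 1172, 1032, 587, 891 and 1056 of all genes were at an unadjusted p under 0.05.

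Ccl5 after 2 h of LPS was higher in the libraries labelled KO, at 202, 203 and 210.2 CPM against 129, 157 and 154 CPM (0.47 ± 0.0858, 1.39-fold, adjusted p = 0.00144). The groups did not overlap, and the call held under every alternative (0.40 to 0.52, adjusted p from 5.66e-07 to 0.0323). One of those alternatives left out the library labelled KO whose fibroblast markers summed to 152 CPM. The 10 granulocyte markers were split in the same way at LPS 2 h, at 136.8 to 242.6 CPM labelled KO and 50.1 to 76.8 CPM labelled WT, and their part was not tested. After 24 h of LPS the difference was -0.15 ± 0.0730 (adjusted p = 0.549).

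Ccl2 at Control 0 h stood at 5.88, 2.22 and 3.06 CPM labelled KO and 6.33, 5.52 and 9.65 CPM labelled WT (-1.001 ± 0.330, adjusted p = 0.0366). The groups overlapped, and leaving out single libraries ended the call, namely KO library 2 (-0.71, adjusted p = 0.202), KO library 3 (-0.88, adjusted p = 0.153) or WT library 3 (-0.69, adjusted p = 0.285). It was also lost with no scaling factors (-0.93, adjusted p = 0.0534) and with only the 6 libraries compared (-0.97, adjusted p = 0.0642). Fibroblast markers summed to between 42.1 and 69.2 CPM in these libraries labelled KO and to between 0.529 and 0.904 CPM in those labelled WT, and their part was not tested. With LPS the Ccl2 difference was -0.36 ± 0.138 at 2 h (adjusted p = 0.261) and 0.46 ± 0.16 at 24 h (adjusted p = 0.313), each without overlap and without a call. With no filter on low counts edgeR called both (-0.36, adjusted p = 0.028 and 0.46, adjusted p = 0.0105).

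Ccl6 was lower in the libraries labelled KO in 7 of 7 conditions, from -0.44 ± 0.126 at palmitate 2 h (adjusted p = 0.172) to -0.13 ± 0.153 at LPS 24 h (adjusted p = 0.848). No single condition was called. With no filter on low counts Ccl6 was called at Control 2 h (adjusted p = 0.00149), palmitate 2 h (adjusted p = 1.15e-05) and LPS 2 h (adjusted p = 8.87e-04), and with only the compared libraries in the fit at Control 2 h (adjusted p = 0.011) and palmitate 2 h (adjusted p = 8.19e-04). Without LPS library 1 labelled WT it was called at LPS 2 h (-0.55, adjusted p = 0.0316). At palmitate 2 h Ccl6 stood at 169.9, 136 and 155 CPM labelled KO and 198, 197 and 230.5 CPM labelled WT. The mean difference over the 7 conditions was -0.27 ± 0.0520. That contrast was added because these values had been seen, so it restates them and is given as a description, as is its share of 11.4% of all genes called. Ccl7 was lower in 5 of 7 conditions, with no call and differences down to -1.48 ± 0.518 at palmitate 2 h, on 0 to 22 counts per library outside LPS. Granulocyte markers other than Lcn2 were higher in the libraries labelled KO without overlap in each of the 7 conditions, for example 64.9 to 125.3 against 19.2 to 33.1 CPM at Control 2 h, and their part in the Ccl6 values was not tested. Effects of the Cre allele and of Irf5 deletion cannot be told apart in these groups.

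**Figure D4:**
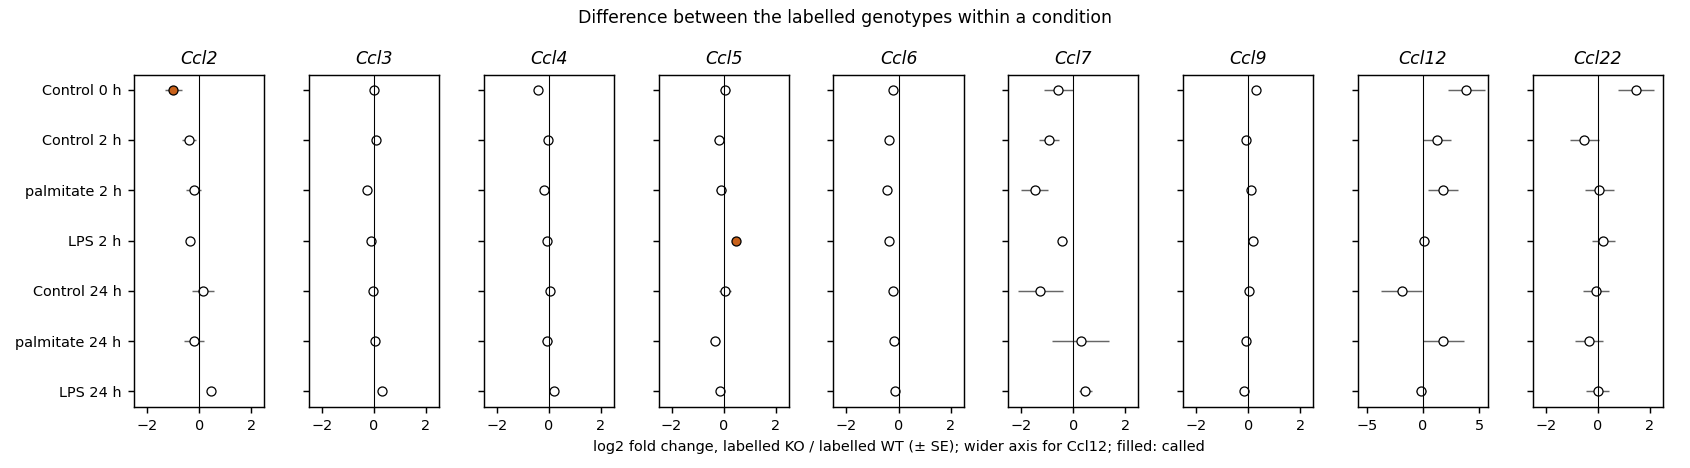
Log2 difference between libraries labelled KO and labelled WT, with SE, for the 9 tested members in 7 conditions. Filled points were called: Ccl2 at Control 0 h (-1.001) and Ccl5 at LPS 2 h (0.47). All 7 points of Ccl6 lie below 0, and Ccl12 has a wider axis.

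Whether a treatment acted differently in the labelled genotypes was tested as an interaction, and edgeR and DESeq2 called 0 members in each of the 4 tests. Of all genes edgeR called 0.0% for LPS at 2 h, for palmitate at 2 h and for palmitate at 24 h, and 0.0086% for LPS at 24 h. At an unadjusted p under 0.05 there were 810, 486, 411 and 628 genes in that order, and DESeq2 called 1, 0, 0 and 2 genes. Ccl5 for LPS at 2 h (0.65 ± 0.198, adjusted p = 0.365) and Ccl3 for LPS at 24 h (0.36 ± 0.180, adjusted p = 0.925) were the members at an unadjusted p under 0.05.

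Across the 14 group means, Pearson's r between members was highest for Ccl2 and Ccl7 (0.983), Ccl3 and Ccl4 (0.956) and Ccl2 and Ccl12 (0.956), and lowest for Ccl5 and Ccl6 (-0.372). Of 7748 candidate genes the most alike were Marcksl1 for Ccl2 (0.988), Rnd1 for Ccl3 (0.986), Kdm6b for Ccl4 (0.990), Lmo4 for Ccl5 (0.989) and Pld3 for Ccl6 (0.976). For Ccl7 it was Arl5c (0.981), for Ccl9 Mcl1 (0.968), for Ccl12 Mllt6 (0.995) and for Ccl22 Srsf7 (0.921). The points share libraries and the LPS response, and ranking by Spearman's rho put another gene first for each of these 9 members.

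Among 13 further CC chemokine genes, 9 were in the table and 2 were tested. Ccl8, another monocyte attractant with at most 25 counts in a library, was called higher after 24 h of LPS (2.10 ± 0.830, adjusted p = 0.0395, labelled WT and 2.86 ± 0.814, adjusted p = 0.00363, labelled KO). Ccl8 had enough counts to be tested only through those LPS libraries, so its call adds little. Ccl25, the CCR9 ligand, had 2 to 21 counts in a library. After 24 h of LPS it was called higher labelled WT (1.79 ± 0.506, adjusted p = 0.00346) and gave -0.55 ± 0.483 labelled KO (adjusted p = 0.391). The edgeR interaction test for LPS at 24 h called 0 of these 2 genes. The 7 not tested had 0 to 12 counts in a library.

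Of 15 receptor genes 6 were tested. After 2 h of LPS 2 were called higher in each labelled genotype, where 14% and 14.7% of all genes were. Ccrl2, an atypical receptor that binds chemerin, went from 11.2 ± 2.64 to 321 ± 14.03 CPM labelled WT (mean ± SD, n = 3; 4.84 ± 0.14, adjusted p = 1.05e-32) and from 11.3 ± 1.16 to 314 ± 6.64 CPM labelled KO (4.79 ± 0.141, adjusted p = 1.98e-32). Ccr3, the receptor of Ccl24, gave 0.56 ± 0.205 and 0.84 ± 0.216 at 2 h and -1.60 ± 0.233 and -1.18 ± 0.251 at 24 h, all called. Ccr2, which reads Ccl2, Ccl7 and Ccl12, had 2 to 42 counts in a library and gave -0.82 ± 0.506 labelled WT (adjusted p = 0.207) and -2.04 ± 0.496 labelled KO (adjusted p = 6.79e-04) after 24 h of LPS.

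All 32 genes of a list were tested, mostly transcription factors and regulators of chemokine genes or their transcripts, but also Ptgs2, Il10 and Ifnb1. After 2 h of LPS 25 were called higher and 2 lower labelled WT, and 26 and 3 labelled KO, where 14% and 14.7% of all genes were called higher. After 24 h 19 were higher and 4 lower, and 20 and 4, where 19.6% and 19.9% of all genes were called higher. At 2 h labelled WT, Nfkbiz, a nuclear IkappaB protein, changed by 5.44 ± 0.111, the NF-kappaB feedback inhibitor Tnfaip3 by 4.46 ± 0.0712, Irf1 by 3.31 ± 0.0943 and Zfp36, an RNA-decay factor of cytokine messages, by 1.72 ± 0.0862. Irf8 was called lower (-0.96 ± 0.0698, adjusted p = 1.72e-16).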

How the data were processed

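BMDM RNA was extracted with RNeasy columns, and ribodepleted stranded libraries (SMARTer Stranded Total RNA Pico v2) were sequenced as read pairs. By the study's methods and the submitters' processing notes, the authors trimmed reads with fastp 0.19.11 and aligned them with STAR 2.7.3a to mm10 (the notes also list mm9), and deposited raw counts per gene. The annotation release and the strand setting of the counting are not given in the sources used here. Genotype, treatment and time came from the labels. The columns name groups only, so library numbers follow column order and only name a library.

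Of 37310 genes, 32620 identifiers had a symbol. Library totals were between 2848793 and 7743442 counts, and intervals and floors take in only the error of counting. Each of the 42 within-group library pairs differed by more than sampling noise (chi-square per degree of freedom 1.93 to 9.32). edgeR 4.0.16 (R 4.3.3, limma 3.58.1) was fitted with 1 mean per group over all 42 libraries, after filterByExpr (11624 genes kept) and TMM scaling, with the quasi-likelihood test and Benjamini-Hochberg adjustment. The SE is the log2 fold change divided by the square root of F. CPM are TMM-scaled. The code was tested on simulated data. Alternatives were RLE or no scaling, no filter, only the libraries compared, DESeq2 1.42.0, the longest transcript as length, and leaving out each library. The mean over 7 conditions and the fit without 5 libraries of high fibroblast markers were added after seeing the data. All members and pathway genes of the lists were eligible to be named, and for likeness the genes of highest Pearson's r with a mean of at least 10 CPM. The members and lists were chosen with earlier results of these data known. A receptor gene of the lists is not reported here.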

Additional observations from a re-analysis of the deposited data

Results flagged for a closer look

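The LPS response differed between 2 h and 24 h for these members by the test of the difference itself (edgeR interaction contrast, log2 response at 24 h minus that at 2 h). In the libraries labelled WT the difference was -1.21 for Ccl2, -4.09 for Ccl3, -5.24 for Ccl4, 4.45 for Ccl5 and -0.65 for Ccl9. In the libraries labelled KO it was -3.56 for Ccl3, -5.01 for Ccl4, 3.61 for Ccl5 and -1.10 for Ccl9. Ccl2 labelled KO gave -0.93 without a call (edgeR adjusted p = 0.0664). Its call labelled WT was lost without Control 24 h library 2 (-0.81, edgeR adjusted p = 0.249).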

How the results depend on the processing

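No paired analysis was possible because the columns carry group names and no replicate numbers. Across alternatives with all libraries, 106 of 120 counts of called members stayed within 1.5 times and 1024 of 1068 single values kept their side of the threshold, 4 lost a call, 31 gained a call and 9 levels per kb moved with the longest transcript. The sign changed in 15 of 1207 fold changes, and in 137 of 2052 when 1 library was left out, none of them called. Control 24 h against 0 h is among them, where Ccl3 (-0.01) and Ccl4 (-0.02) became 0.06 each with no scaling. The cause of the changes below was not tested. With no filter on low counts, the members called were 4 for palmitate 24 h labelled WT (1 in the report), 2 labelled KO (1), and between labelled genotypes 3 at Control 0 h (1), 1 at Control 2 h (0), 1 at palmitate 2 h (0), 3 at LPS 2 h (1) and 1 at LPS 24 h (0). With only the libraries compared they were 2 and 3 for palmitate 24 h labelled WT and KO, and 1 at Control 2 h and 1 at palmitate 2 h between labelled genotypes, Ccl6 in both. DESeq2 gave 3 for palmitate 24 h labelled WT and 2 at Control 0 h between labelled genotypes, and no scaling gave 2 for palmitate 24 h labelled WT.

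Leaving out 1 library gave between 1 and 2 members for palmitate 24 h labelled WT, between 3 and 7 for Control 2 h against 0 h, between 0 and 2 at Control 0 h and between 1 and 2 at LPS 2 h between labelled genotypes. Other counts stayed within 1.5 times. Without the 5 libraries of high fibroblast markers, 17 of 17 counts were within 1.5 times.

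Over all genes, no filter gave 76 and 34 calls for palmitate 2 h labelled WT and KO (32 and 13 in the report's fit), 167 and 182 for palmitate 24 h (99 and 102), and between labelled genotypes 176 at Control 2 h (57), 130 at palmitate 2 h (17), 190 at LPS 2 h (54), 55 at Control 24 h (14), 75 at palmitate 24 h (8) and 112 at LPS 24 h (17), with 43, 16, 26 and 9 for the interactions of LPS 2 h, palmitate 2 h, LPS 24 h and palmitate 24 h (0, 0, 1 and 0). With only the libraries compared these were 83 and 21 for palmitate 2 h, 226 for palmitate 24 h labelled KO, and 235, 96, 23, 52, 20 and 9 between labelled genotypes in the order above, with 0 for the interaction of LPS 24 h. DESeq2 gave 29 at palmitate 2 h, 15 at palmitate 24 h, 33 at LPS 24 h and 1 and 2 for the LPS interactions at 2 and 24 h, and no scaling gave 29 at palmitate 2 h. Without the libraries of high fibroblast markers there were 7 for palmitate 2 h labelled KO, 14 at Control 2 h, 6 at palmitate 2 h, 9 at Control 24 h, 9 at LPS 24 h, 5 and 0 for the LPS interactions and 828 for the mean of 7 conditions (1320). No scaling moved the higher share of calls from 47.8% to 74.3% for Control 24 h against 0 h, from 51.4% to 76.9% at Control 0 h between labelled genotypes and from 53.1% to 79.3% for the mean of 7 conditions. Depth limits Ccl7 and Ccl12, which hold few counts outside the LPS groups. It limits Ccl22 and Ccl24 in all groups, as they hold at most 41 and 5 counts in any library.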
